A study of Mus musculus with 6 samples.

Results

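The genes described here are those of the mouse major histocompatibility complex (MHC, called H2 in the mouse) and of antigen presentation, in livers of mice with and without Cyr61. The rule that chose them goes by symbol and uses no measured value. All 43 symbols in the count tables that start with H2- were taken, together with 7 named genes, B2m, Tap1, Tap2, Tapbp, Cd74, Ciita and Nlrc5. These 50 genes stand among 24411 gene symbols in the tables. By symbol, 32 were counted as MHC class I chains and 10 as class II chains, and 1, H2-Ke6, is a gene of the MHC region that encodes no MHC chain. Of those counted as class I chains, H2-K2 is annotated as a transcribed unprocessed pseudogene, and H2-Bl, H2-Q5 and H2-T10 as polymorphic pseudogenes. Of the named genes, 5 serve class I (B2m, Tap1, Tap2, Tapbp and Nlrc5) and 2 serve class II (Cd74 and Ciita).

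RNA sequencing of whole liver gave 3 Cyr61 KO and 3 Control libraries. Per the labels, all 6 came from male mice of 24 weeks, of the strain Cyr61fl/fl, after 12 weeks of a NASH (non-alcoholic steatohepatitis) diet, so the floxed allele and the diet were shared by both groups. The labels name no Cre driver and do not say from which cells Cyr61 was removed. Nor do they say that each library is a separate animal, and p-values then describe only how these 6 libraries vary, which may be technical. Cyr61, the targeted gene, stood in Cyr61 KO replicates 1, 2 and 3 at 3.77, 2.66 and 3.14 CPM, against 15.6, 32.4 and 27.8 CPM in Control replicates 1, 2 and 3 (log2 fold change -2.98 ± 0.32 SE, edgeR adjusted p = 0.0103). CPM are reads relative to library size (the usual depth-scaled read count) after TMM scaling, which sets libraries to a common effective size. Libraries held 21032878 to 40377742 gene counts, with the fewest in Control replicate 2. Genes took 50.9% of its reads, against 82.8% to 87.6% elsewhere, and Malat1, a nuclear RNA, stood at 3738 CPM against 56.5 to 128 CPM. Without this library many log2 fold changes came nearer to 0, and those of the 31 tested genes that moved by over 1.5 times are given beside the results. Alb, the albumin gene of hepatocytes, was at 77118 to 90103 CPM in Cyr61 KO and 23799 to 66677 CPM in Control libraries.

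MHC class I molecules consist of a heavy chain and beta-2-microglobulin. They are made by nearly all nucleated cells and show peptides from inside the cell to CD8 T cells. The peptides are cut by the proteasome, carried into the endoplasmic reticulum by the TAP transporter and loaded with the help of tapasin. MHC class II molecules consist of an alpha and a beta chain. They are made mainly by dendritic cells, B cells and macrophages, and show peptides from endosomes to CD4 T cells. NLRC5 and CIITA are the related coactivators that drive class I and class II genes. In a healthy liver, hepatocytes carry class I but little or no class II.

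The main MHC class II chains, their invariant chain and their editor fell in Cyr61 KO livers, whereas the most abundant class I heavy chains overlapped between the groups. Of the 50 genes, 31 passed the filter on low counts and were tested. Of these 31, 7 were called lower and 0 higher in Cyr61 KO livers (edgeR quasi-likelihood test, Benjamini-Hochberg adjusted p below 0.05 over all 13563 genes tested). Over all genes tested, 3.44% were called, 2.37% lower and 1.07% higher. The class II chains had 5 of 9 tested members called lower, at a median log2 fold change of -2.59. The class I chains had 1 of 14 called lower, at a median of -0.46. These 14 include H2-K2, H2-Bl, H2-Q5 and H2-T10, which are annotated as pseudogenes. The median over all genes tested was -0.03. The difference between the class medians, -2.13, was not tested.

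**Figure D1:**
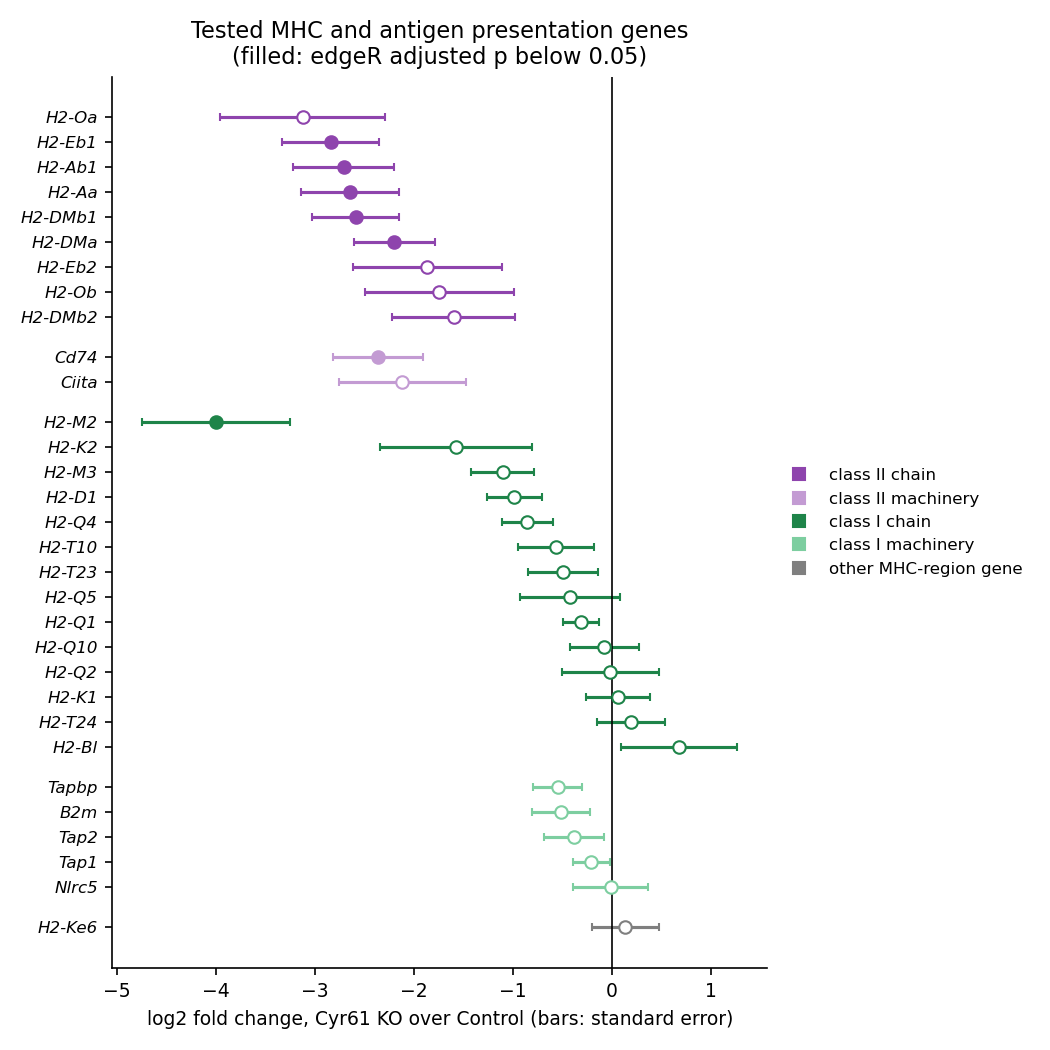
Log2 fold change of Cyr61 KO over Control for each of the 31 tested genes, by class; bars are standard errors and filled points have an edgeR adjusted p below 0.05. All 9 class II chains lie between -3.13 and -1.60, while 11 of the 14 class I chains lie within 1 of zero. H2-Oa and H2-Eb2 passed the low-count filter through the Control libraries, so their negative sign was favoured in advance.

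H2-Aa and H2-Ab1 encode the alpha and beta chains of the I-A molecule, and H2-Eb1 encodes the beta chain of I-E. H2-Aa levels in Cyr61 KO replicates 1, 2 and 3 were 58.3, 29.4 and 69.8 CPM, against 244, 562 and 182 CPM in Control replicates 1, 2 and 3. Every Cyr61 KO library lay below every Control library, with Control replicate 2 the highest and Cyr61 KO replicate 2 the lowest. The means were 52.5 ± 20.8 CPM in Cyr61 KO and 329 ± 204 CPM in Control (SD, n = 3 each), and H2-Aa fell by 2.65 ± 0.50 (SE) on the log2 scale (edgeR adjusted p = 0.0334). H2-Ab1 was at 63.3, 29.3 and 62.4 CPM in Cyr61 KO and 236, 594 and 185 CPM in Control libraries, and fell by 2.71 ± 0.51. H2-Eb1 was at 58.9, 26.1 and 57.3 CPM in Cyr61 KO and 257, 573 and 191 CPM in Control libraries, and fell by 2.84 ± 0.49. The edgeR adjusted p were 0.0334 for H2-Ab1 and 0.0277 for H2-Eb1. For these 3 chains the Cyr61 KO mean was 13.9% to 15.9% of the Control mean, or 21.2% to 24.6% without Control replicate 2. The same libraries stood high and low in all 3 genes. The only alpha chain gene of I-E in the tables, H2-Ea-ps, is annotated as a polymorphic pseudogene and had 0 counts in every library, a count that allows a level of up to 0.0841 to 0.106 CPM (3 counts in a library, counting error only).

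The chains kept nearly the same proportions in every library. The ratio of H2-Aa to H2-Ab1 CPM was 0.921, 1.00 and 1.12 in Cyr61 KO and 1.04, 0.947 and 0.984 in Control libraries, so the groups overlapped. The ratio of H2-Eb1 to H2-Ab1 was 0.931, 0.893 and 0.918 in Cyr61 KO and 1.09, 0.965 and 1.03 in Control libraries, without overlap. The levels were also alike per length. Divided by transcript length, H2-Aa averaged 46.5 ± 18.5, H2-Ab1 42.6 ± 16 and H2-Eb1 40.5 ± 15.8 CPM per kb in Cyr61 KO, and H2-Aa 292 ± 181, H2-Ab1 279 ± 184 and H2-Eb1 290 ± 175 CPM per kb in Control livers (SD, n = 3 each). The spread over libraries was much wider than the differences between these 3 genes.

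**Figure D2:**
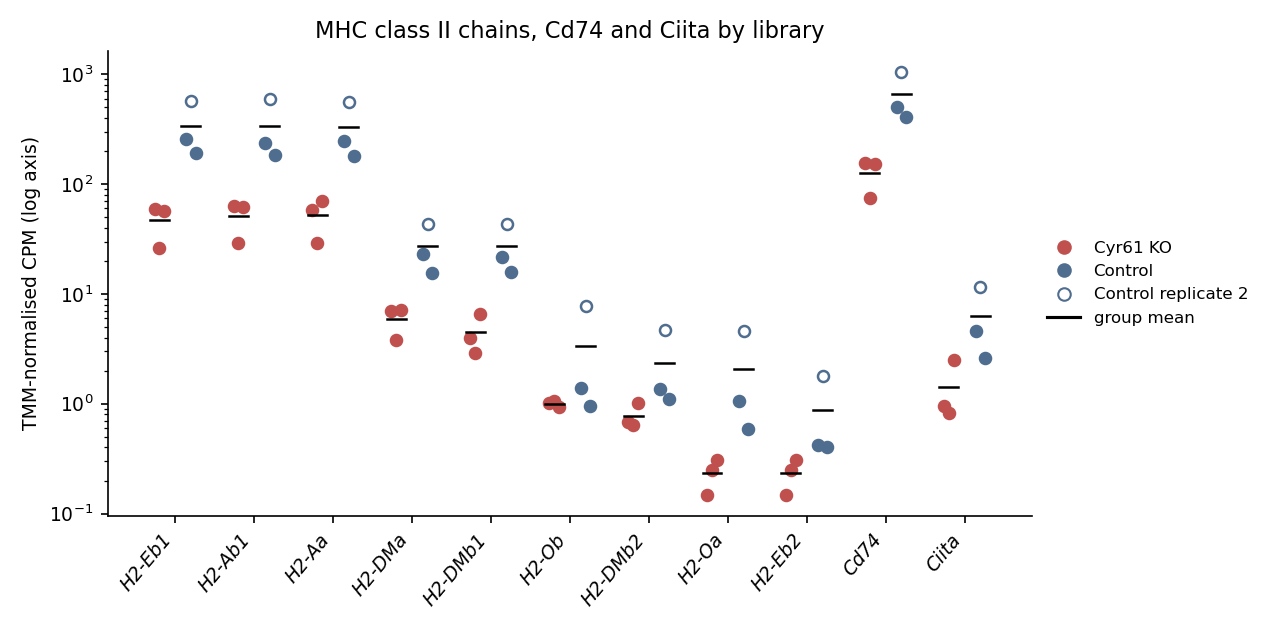
TMM-normalised CPM on a log axis for the 9 tested class II chains, Cd74 and Ciita; each point is a library, lines are group means, and the open circle is Control replicate 2. Control replicate 2 is the highest library in all 11 genes, and the groups overlap in H2-Ob only.

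The loading chaperones of the class II pathway were lower as well. Cd74 encodes the invariant chain, which fills the class II groove until the endosome is reached. It was at 155, 74.0 and 152 CPM in Cyr61 KO and 505, 1051 and 411 CPM in Control libraries, and fell by 2.37 ± 0.46 (SE) on the log2 scale (edgeR adjusted p = 0.0355). The ratio of Cd74 to H2-Ab1 CPM was 2.45, 2.53 and 2.44 in Cyr61 KO and 2.14, 1.77 and 2.23 in Control libraries, so it was higher in each Cyr61 KO library. H2-DMa and H2-DMb1 encode the chains of H2-M, the editor that exchanges the remnant of the invariant chain for peptide. H2-DMa was at 6.92, 3.80 and 7.09 CPM in Cyr61 KO and 23.1, 43.4 and 15.5 CPM in Control libraries, and fell by 2.20 ± 0.41 (edgeR adjusted p = 0.0334). H2-DMb1 was at 3.98, 2.91 and 6.56 CPM in Cyr61 KO and 21.7, 43.6 and 15.9 CPM in Control libraries, and fell by 2.59 ± 0.44 (edgeR adjusted p = 0.0272). In neither gene did the groups overlap. H2-DMa was no longer called without Control replicate 1 (log2 fold change -2.25, edgeR adjusted p = 0.0518) or without Control replicate 2 (-1.67, 0.0539). The second beta chain copy, H2-DMb2, was at 0.683, 0.639 and 1.01 CPM in Cyr61 KO and 1.35, 4.65 and 1.11 CPM in Control libraries and did not pass (log2 fold change -1.60, edgeR adjusted p = 0.145; -0.63 without Control replicate 2). The DMb copies are alike: 15.8% of the windows of 75 bases in H2-DMb1 transcripts also occur in other transcripts, all of them in H2-DMb2, so their counts are uncertain to that extent.

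H2-Oa and H2-Ob encode H2-O, an inhibitor of H2-M made mainly by B cells. H2-Oa was at 0.149, 0.248 and 0.308 CPM in Cyr61 KO and 1.07, 4.61 and 0.588 CPM in Control libraries. These rest on 5, 7 and 11 counts in Cyr61 KO and 38, 134 and 19 counts in Control libraries, and the log2 fold change of -3.13 ± 0.84 (SE) did not pass (edgeR adjusted p = 0.0731). Without Control replicate 2 it was -1.78. H2-Ob was at 1.01, 1.06 and 0.925 CPM in Cyr61 KO and 1.40, 7.71 and 0.959 CPM in Control libraries, or -1.74 ± 0.75 (SE) in log2 fold change (edgeR adjusted p = 0.175). Its groups overlapped, and without Control replicate 2 it was at -0.22. H2-Eb2, a second beta chain gene of the I-E family, was at 0.149, 0.248 and 0.308 CPM in Cyr61 KO and 0.421, 1.79 and 0.402 CPM in Control libraries, at -1.86 (edgeR adjusted p = 0.156), or -0.77 without Control replicate 2. It had the same counts as H2-Oa in the Cyr61 KO libraries. Both passed the low-count filter through the Control libraries, so their negative sign was favoured in advance. Without a low-count filter 9 class II chains were tested, at a median of -2.53. With at least 1 CPM in 3 libraries 6 were, at -2.67. In all, every Cyr61 KO library lay below every Control library in 8 of the 9 class II chains, H2-Oa and H2-Eb2 included. This held in 17.9% of all genes tested, and 35.2% of all genes did not overlap in either direction.

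Ciita, the coactivator gene, was at 0.951, 0.816 and 2.52 CPM in Cyr61 KO and 4.58, 11.6 and 2.599 CPM in Control libraries. The groups nearly met, at Cyr61 KO replicate 3 and Control replicate 3. The log2 fold change of -2.12 ± 0.64 (SE) did not pass (edgeR adjusted p = 0.0904), while DESeq2 gave an adjusted p of 0.00899. Without Control replicate 2 it was -1.30. The number of H2-Ab1 reads for each Ciita read was 66.6, 35.9 and 24.7 in Cyr61 KO and 51.5, 51.3 and 71.0 in Control libraries, so the groups overlapped.

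CIITA is brought to class II promoters by factors bound at a conserved module that ends in the Y box, which the factor NF-Y binds. Its core letters ATTGG, read on both strands, were found in the promoter windows of 8 of the 8 class II chain genes with a RefSeq window, against 37.4% of all 32851 windows, each running from 250 bases before to 50 after a gene's start. The longer form CTGATTGG was found in 4 of the 8, against 4.10% of all windows; each such match includes a match of the core. Class I chain genes hold these letters too, the core in 19 of 22 genes with a window and the longer form in 13 of 22. A gene was counted if any of its windows matched, whereas the shares over all windows are per window. The stretches of H2-Aa, H2-Eb1, H2-DMb1 and H2-Oa (RefSeq, GRCm38.p6) are aligned on the core, in capitals, and are shown because they cover the peptide-binding, editor and H2-O chains.
H2-Aa, chr17:34287857-34287941, minus strand: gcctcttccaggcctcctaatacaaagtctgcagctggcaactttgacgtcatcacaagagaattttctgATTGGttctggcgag
H2-Eb1, chr17:34305738-34305822, plus strand: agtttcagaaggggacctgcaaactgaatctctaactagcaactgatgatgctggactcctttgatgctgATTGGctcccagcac
H2-DMb1, chr17:34153060-34153144, plus strand: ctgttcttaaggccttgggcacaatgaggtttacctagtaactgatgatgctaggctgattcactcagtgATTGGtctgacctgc
H2-Oa, chr17:34092266-34092350, plus strand: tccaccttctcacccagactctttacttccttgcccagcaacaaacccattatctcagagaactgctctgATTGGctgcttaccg
The core began 48, 59, 61 and 43 bases before the RefSeq gene start in H2-Aa, H2-Eb1, H2-DMb1 and H2-Oa. A match is a description of letters and not a bound site.

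The calls depended on which libraries were kept. Without Cyr61 KO replicate 1, or without replicate 2, edgeR called 0 of the 9 chains, at medians of -2.49 and -2.34, where it also called 7 and 24 of all genes. Scaled by library totals alone, edgeR called 0 of the 9 chains, at a median of -2.95, with all genes at a median of -0.30. Cd74 and the class I chain H2-M2 were not called in any of these 3 settings either. Without Control replicate 1, 4 of the 9 chains were called and Cd74 was not (edgeR adjusted p = 0.0560). Without Control replicate 2, 4 of the 9 chains were called, at a median of -1.78.

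Among class I genes, the 2 most abundant heavy chains did not differ beyond the spread between libraries. H2-K1 encodes the classical heavy chain H-2K. It was at 2254, 1642 and 1410 CPM in Cyr61 KO and 1688, 1461 and 1934 CPM in Control libraries, or 0.06 ± 0.33 in log2 fold change (SE, edgeR adjusted p = 0.915). The groups overlapped, and the sign turned with library totals only (-0.21), with limma voom (-0.09), and when Cyr61 KO replicate 1 (-0.14) or Control replicate 2 (-0.01) was left out. H2-Q10 encodes a class I chain that the mouse liver secretes into blood. It was at 2996, 2420 and 2633 CPM in Cyr61 KO and 2900, 2029 and 3538 CPM in Control libraries, at -0.07 ± 0.35 (edgeR adjusted p = 0.905). It was negative in the full comparison and positive without Cyr61 KO replicate 2 (0.01) or Control replicate 3 (0.14), and -0.235 without Control replicate 2. Per length H2-Q10 averaged 1347 ± 146 and H2-K1 1093 ± 269 CPM per kb in Cyr61 KO livers, and H2-Q10 1417 ± 380 and H2-K1 1047 ± 146 CPM per kb in Control livers (SD, n = 3 each). The ranges of these 2 genes overlapped in each group. H2-Q10 took 45.4% to 57.8% of all class I chain reads over the 6 libraries. Of its 75-base windows 12.5% also occur in other transcripts, most often in those of H2-Q7, which had 0 counts in every library. Its counts and this share are uncertain to that extent.

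H2-D1, the other classical heavy chain gene measured, was lower in every Cyr61 KO library but did not pass. It was at 223, 170 and 188 CPM in Cyr61 KO and 303, 478 and 367 CPM in Control libraries, with means of 193 ± 27.0 CPM in Cyr61 KO and 383 ± 88.7 CPM in Control (SD, n = 3 each). The log2 fold change was -0.98 ± 0.28 (SE, edgeR adjusted p = 0.0778), and DESeq2 gave an adjusted p of 0.00341. H2-D1 stood at 9.88%, 10.3% and 13.3% of the H2-K1 CPM in Cyr61 KO and 17.9%, 32.7% and 19.0% in Control libraries, so the balance between the classical chains differed without overlap. The highest share was in Control replicate 2. No p was computed for this ratio, since exact permutation of 3 and 3 libraries gives a two-sided p of 0.1 at the least.

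**Figure D3:**
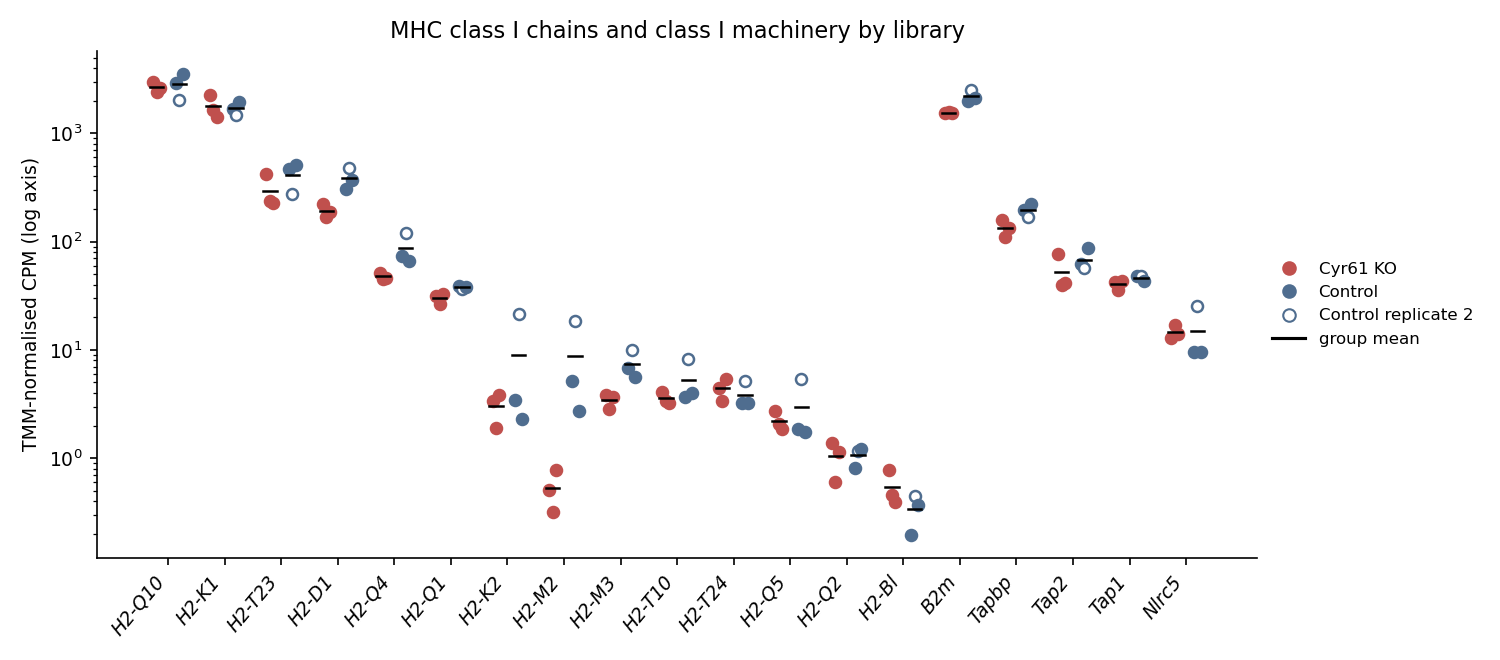
TMM-normalised CPM on a log axis for the 14 tested class I chains and the 5 class I machinery genes; each point is a library, lines are group means, and the open circle is Control replicate 2. H2-K1 and H2-Q10 overlap between the groups, while H2-D1, H2-Q4, H2-Q1, H2-M3, H2-M2, B2m, Tapbp and Tap1 lie lower in every Cyr61 KO library. These are 8 of the 19 genes, against 17.9% of all genes tested.

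Non-classical class I chains divided in the same way. H2-Q4, a Qa region gene, was at 51.4, 45.6 and 46.3 CPM in Cyr61 KO and 74.3, 119 and 65.9 CPM in Control libraries, without overlap, at -0.86 ± 0.26 (SE, edgeR adjusted p = 0.0884), or -0.53 without Control replicate 2. H2-M3, which presents formylated bacterial peptides, was at 3.86, 2.87 and 3.67 CPM in Cyr61 KO and 6.83, 9.98 and 5.60 CPM in Control libraries, without overlap, at -1.10 ± 0.32 (edgeR adjusted p = 0.0818). H2-T23 encodes Qa-1, the ligand of the NKG2A receptor of natural killer cells. It was at 420, 239 and 229 CPM in Cyr61 KO and 466, 276 and 505 CPM in Control libraries, which overlapped, at -0.49 ± 0.35 (edgeR adjusted p = 0.388). H2-Q1 was at 31.5, 26.8 and 32.7 CPM in Cyr61 KO and 38.9, 36.5 and 37.7 CPM in Control libraries, at -0.31 ± 0.18 (edgeR adjusted p = 0.291). Of its 75-base windows 10.95% also occur in other transcripts.

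H2-M2 was the only class I chain called, and its log2 fold change of -4.00 was farther from 0 than that of any class II chain. It was at 0.505, 0.319 and 0.785 CPM in Cyr61 KO and 5.14, 18.3 and 2.75 CPM in Control libraries. In counts these were 17, 9 and 28 in Cyr61 KO and 183, 532 and 89 in Control libraries. The log2 fold change was -4.00 ± 0.75 (SE, edgeR adjusted p = 0.0334), or -2.83 without Control replicate 2. The libraries ranked as for the class II chains among the controls, with replicate 2 highest and replicate 3 lowest. The other 6 tested class I chains, H2-K2, H2-Q2, H2-Q5, H2-T24, H2-Bl and H2-T10, overlapped between the groups, at log2 fold changes from -1.57 for H2-K2 to 0.68 for H2-Bl. Of these 6, only H2-Q2 and H2-T24 are annotated as protein-coding. H2-K2 was at 21.4 CPM in Control replicate 2 and at 1.92 to 3.81 CPM in the other 5 libraries, and without that library its log2 fold change was 0.11 in place of -1.57. Also without it, H2-Q5 was at 0.32 in place of -0.42, H2-T10 at -0.06 in place of -0.56, H2-T24 at 0.48 in place of 0.19 and H2-Q2 at 0.09 in place of -0.01.

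Beta-2-microglobulin is the light chain of every class I molecule. B2m was at 1537, 1561 and 1547 CPM in Cyr61 KO and 1997, 2495 and 2126 CPM in Control libraries. The groups did not overlap, with means of 1548 ± 12.1 CPM in Cyr61 KO and 2206 ± 258 CPM in Control (SD, n = 3 each), but the log2 fold change of -0.51 ± 0.30 (SE) did not pass (edgeR adjusted p = 0.290). Tapbp, the tapasin gene, was at 158, 110 and 134 CPM in Cyr61 KO and 196, 168 and 224 CPM in Control libraries, at -0.55 ± 0.25 (edgeR adjusted p = 0.189). Tap1 was at 42.0, 35.9 and 43.2 CPM in Cyr61 KO and 48.2, 47.6 and 43.7 CPM in Control libraries, at -0.20 ± 0.18 (edgeR adjusted p = 0.495). Tap2 was at 76.6, 39.6 and 41.0 CPM in Cyr61 KO and 61.9, 56.5 and 86.4 CPM in Control libraries, at -0.38 ± 0.31 (edgeR adjusted p = 0.440). Of these 4 genes, Tap2 alone overlapped between the groups. In Tap1 the groups nearly met, at 43.2 CPM in Cyr61 KO replicate 3 and 43.7 CPM in Control replicate 3. Every Cyr61 KO library lay below every Control library in 17.9% of all genes tested. None of the 5 class I machinery genes was called by edgeR, and 0 of the 5 had an unadjusted p under 0.05. Limma voom called Tapbp and Tap2 lower, where it called 4483 of all 13563 genes tested, 2409 of them lower.

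Nlrc5, the class I coactivator gene, was at 12.8, 17.1 and 14.1 CPM in Cyr61 KO and 9.55, 25.3 and 9.59 CPM in Control libraries. All Cyr61 KO libraries lay above Control replicates 1 and 3 and below Control replicate 2. The log2 fold change was -0.01 ± 0.38 (SE, edgeR adjusted p = 0.988), or 0.64 without Control replicate 2 (edgeR adjusted p = 0.129). Limma voom with quality weights, which gives a deviating library less weight, called it higher at 0.68 (adjusted p = 0.0204). H2-Ke6, a dehydrogenase gene of the MHC region, was at 154, 78.1 and 61.7 CPM in Cyr61 KO and 77.1, 85.9 and 104 CPM in Control libraries, at 0.14 ± 0.34 (edgeR adjusted p = 0.812). Its sign turned with library totals only (-0.17), with limma voom (-0.09) and without Cyr61 KO replicate 1 (-0.34). Of its 75-base windows 65.5% also occur in transcripts of the gene Gm20427, so its counts are uncertain to that extent.

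Class I promoters carry an NF-kB element called enhancer A and, next to it, an interferon-stimulated response element (ISRE). The enhancer A motif, in its exact form as the first capitals of the H2-K1 stretch, was found on either strand in 4 of 22 class I chain genes with a window, against 0.107% of all windows. The ISRE letters TTTCACTTC were found in 7 of the 22, against 0.505% of all windows. Neither was found in the 8 class II genes. The stretches of 4 genes (RefSeq, GRCm38.p6) are aligned on the ISRE, with ISRE, enhancer A and Y box core in capitals, and are shown because H2-D1 and H2-Q4 were lower in every Cyr61 KO library while H2-K1 and H2-Q10 overlapped between the groups.
H2-K1, chr17:34000358-34000462, minus strand: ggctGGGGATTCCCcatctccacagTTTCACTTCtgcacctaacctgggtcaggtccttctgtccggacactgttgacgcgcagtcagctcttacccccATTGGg
H2-D1, chr17:35262919-35263023, plus strand: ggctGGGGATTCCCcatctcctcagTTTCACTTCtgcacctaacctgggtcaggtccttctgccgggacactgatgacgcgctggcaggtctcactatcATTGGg
H2-Q4, chr17:35379439-35379543, plus strand: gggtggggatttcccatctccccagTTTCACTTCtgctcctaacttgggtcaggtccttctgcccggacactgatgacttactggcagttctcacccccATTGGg
H2-Q10, chr17:35469909-35470013, plus strand: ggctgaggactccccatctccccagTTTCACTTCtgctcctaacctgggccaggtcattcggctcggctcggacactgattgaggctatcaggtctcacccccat
At the place of enhancer A, H2-Q4 differed from these letters at 1 position and H2-Q10 at 2 positions, and H2-K1 and H2-D1 at 0. Compared letter by letter without gaps, the H2-D1 stretch was 89.5% identical to that of H2-K1, that of H2-Q4 86.7% and that of H2-Q10 61.0%. H2-K1 and H2-D1 both held the 3 matches. Whether any of these letters bears on the levels of the genes was not tested.

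Set against class I, class II made up a smaller part of MHC reads in every Cyr61 KO library. There were 3.22, 2.06 and 4.51 class II chain reads per 100 class I chain reads in Cyr61 KO replicates 1, 2 and 3, against 14.3, 41.0 and 9.14 in Control replicates 1, 2 and 3. The summed class II level was 93.7 to 206 CPM in Cyr61 KO and 591 to 1835 CPM in Control libraries, which did not overlap. The summed class I level was 4557 to 5997 CPM in Cyr61 KO and 4471 to 6469 CPM in Control libraries, which did. The class I sums hold no reads of H2-Q6, H2-Q7, H2-Q8, H2-Q9, H2-T9 and H2-T22, whose zeros are uncertain. The difference between the class medians of the log2 fold change was -1.63 without Control replicate 2, and -1.87 to -2.51 without any other single library.

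**Figure D4:**
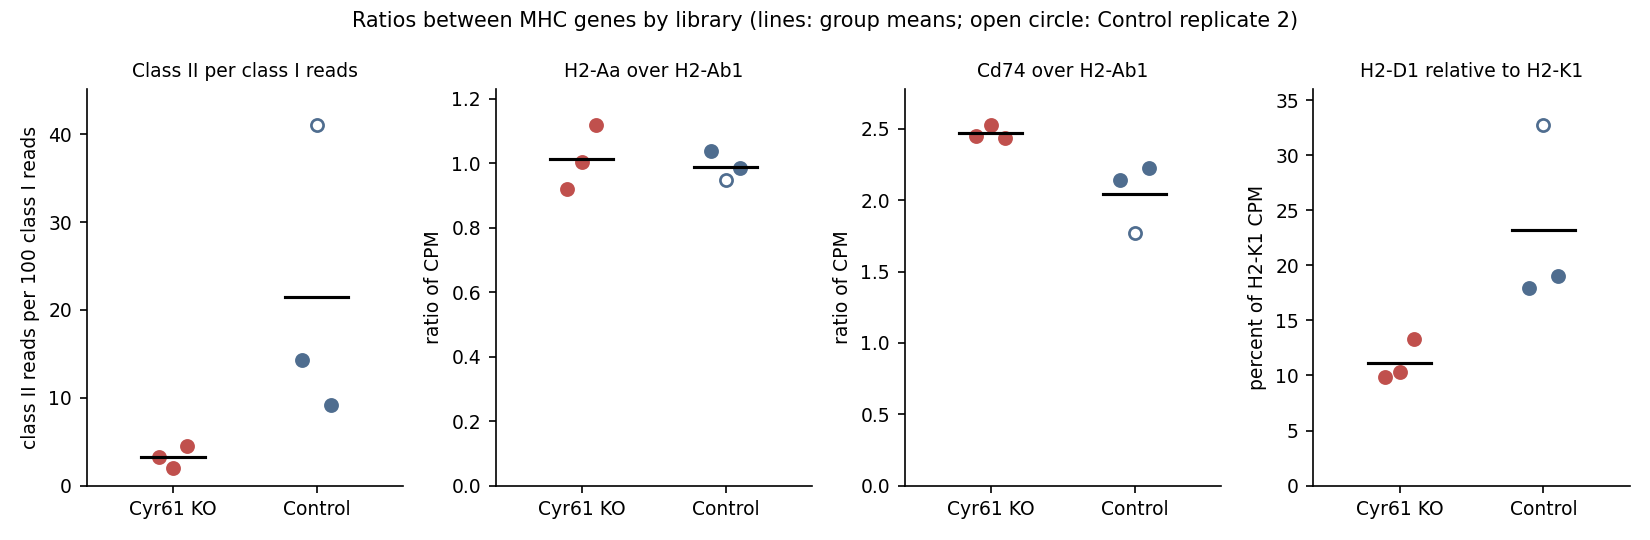
Ratios between MHC genes in each library: class II chain reads per 100 class I chain reads, and the CPM ratios H2-Aa over H2-Ab1, Cd74 over H2-Ab1, and H2-D1 as a percent of H2-K1; lines are group means and the open circle is Control replicate 2. The groups overlap in H2-Aa over H2-Ab1, which stays between 0.921 and 1.12, and in no other panel.

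Of the 50 genes, 19 were not tested, and 17 of these had 0 counts in every library. They were H2-Ea-ps and 16 class I chains, among them the 6 H2-M10 genes, which are known from the vomeronasal organ, and H2-M1, H2-M9, H2-M11 and H2-T3. The others at 0 were H2-Q6, H2-Q7, H2-Q8, H2-Q9, H2-T9 and H2-T22. Of H2-Q6, H2-Q7 and H2-T22, 17.0% to 18.5% of the 75-base windows also occur in transcripts of other genes, and reads that map to several places or fall in several genes were not counted. H2-Q5, with 21.2% of windows shared, had 57 to 155 counts in a library, and H2-T10, with 16.1%, had 96 to 240. H2-Q8, H2-Q9 and H2-T9 were not found in the GENCODE M21 annotation and have no window share. Why H2-Q6, H2-Q7, H2-Q8, H2-Q9, H2-T9 and H2-T22 were at 0 was not tested. Their zeros are uncertain and were not read as absence. H2-L had 1 count in all and H2-M5 had 6, all in Control replicate 2.

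Other genes of the 2 pathways were followed as lists. Of 10 genes for class II loading and endosomal proteolysis, 2 were called lower and 0 higher, at a median log2 fold change of -0.48. Ctss, cathepsin S, which trims the invariant chain, was at 60.2, 38.6 and 87.8 CPM in Cyr61 KO and 264, 382 and 205 CPM in Control libraries, and fell by 2.19 (edgeR adjusted p = 0.0272). Ifi30, a thiol reductase of antigen processing, was at -1.52 and also passed (edgeR adjusted p = 0.0427). Lgmn, legumain, was at -1.10 and March8, a ubiquitin ligase that acts on class II, at 0.65, and neither passed (edgeR adjusted p = 0.0662 and 0.176). The broadly expressed cathepsins Ctsb, Ctsd, Ctsl and Ctsh were between -0.55 and 0.10. Without Cyr61 KO replicate 1 or 2, Control replicate 1 or with library totals only, 0 genes of this list were called, and without Control replicate 2, 1.

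Over all genes tested, 27.4% had an unadjusted p under 0.05. Of 14 genes for class I peptide supply and loading, 5 had one, 0 were called by edgeR, and 2 were lower by DESeq2. Limma voom called 5 lower and 2 higher. Of all 13563 genes tested, DESeq2 called 2273 (1387 lower) and limma voom 4483 (2409 lower, 2074 higher). The immunoproteasome subunit genes Psmb8, Psmb9 and Psmb10 were at -1.04, -0.96 and -0.99 (edgeR adjusted p = 0.0994, 0.0914 and 0.145), and the activator gene Psme2 at -0.78 (0.145). The chaperone genes Canx, Calr and Pdia3 were at 0.48, 0.39 and 0.43, and the peptidase gene Erap1 at 0.66 (0.151). The list median was 0.24. Of 16 tested genes of MHC transcription 1 was called lower, Spi1, the gene of the myeloid factor PU.1, which fell by 1.84 (edgeR adjusted p = 0.0476). Irf8 and Ifngr1, a chain of the interferon gamma receptor, stood at -1.70 and -0.94 (edgeR adjusted p = 0.0777 and 0.108), while the genes of the factors that bind the class II module, Rfx5, Rfxap, Rfxank, Nfya, Nfyb and Nfyc, lay between -0.49 and 0.54. Ifng, the interferon gamma gene, reached at most 0.929 CPM and was not tested. The Spi1 call was lost when Control replicate 1 or 2 or Cyr61 KO replicate 1 or 2 was left out, with library totals only, and with a filter of 1 CPM in 3 libraries. DESeq2 called 3 genes of this list lower.

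Of 6 tested costimulation genes 0 were called by edgeR, 4 were under 0.05 in unadjusted p, and DESeq2 called 4 lower. DESeq2 called 1387 of all 13563 genes tested lower. All 6 had a negative log2 fold change, with Cd40 at -2.01, Icosl at -2.25, Icam1 at -1.09 and Cd86 at -1.40 (edgeR adjusted p = 0.0639, 0.0806, 0.0827 and 0.0938). Of 7 tested class I-like genes outside the H2 symbols 0 were called by edgeR, 1 was under 0.05 in unadjusted p, and DESeq2 called 0. Cd1d1, which presents lipids to NKT cells, was higher in every Cyr61 KO library, at 175 to 223 CPM against 87.9 to 172 CPM in Control libraries, and did not pass (0.55, edgeR adjusted p = 0.249). Procr, the endothelial protein C receptor, was at -1.54 (edgeR adjusted p = 0.136), Fcgrt, the neonatal Fc receptor, at 0.41 and Mr1 at 0.33.

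Markers of dendritic cells and macrophages, which usually carry class II, had lower sums in every Cyr61 KO library, as did B cell, T and NK cell and cholangiocyte markers. In whole liver, fewer cells of a type and less RNA per cell cannot be told apart. The 8 dendritic cell markers summed to 6.42 to 12.8 CPM in Cyr61 KO and 20.8 to 73.3 CPM in Control libraries. Their median was -2.22, and 1 of 8 was called lower, Itgax (CD11c), which fell by 2.96. Itgax averaged 23.6 CPM in Control libraries, where the 8 markers summed to a mean of 41.4 CPM. The groups overlapped in Xcr1 and Clec9a, at -2.12 and -1.39, and in Zbtb46, which was at 0.18. The 8 macrophage markers summed to 200 to 533 CPM in Cyr61 KO and 633 to 1010 CPM in Control libraries, with 2 of 8 called lower, Lyz2 and Cx3cr1, at a median of -1.65. Lyz2 averaged 493 CPM in Control libraries, where the 8 markers summed to a mean of 845 CPM. The groups overlapped in Cd68, Csf1r and Adgre1, at -1.41, -0.68 and -0.52, and in the Kupffer cell marker Clec4f, at 0.22. The 6 B cell markers summed to 2.64 to 4.68 CPM in Cyr61 KO and 4.92 to 26.7 CPM in Control libraries, with 0 of 5 tested called by edgeR, 2 of 5 at an unadjusted p under 0.05 and 1 called by DESeq2. The 6 T and NK cell markers summed to 2.78 to 3.09 CPM in Cyr61 KO and 5.79 to 60.1 CPM in Control libraries. Of the 6, 0 were called by edgeR, 6 had an unadjusted p under 0.05 and 5 were called by DESeq2. DESeq2 called 2273 of all 13563 genes tested. None of these markers was at 0 in all libraries. Hepatocyte markers summed to 100716 to 126088 CPM in Cyr61 KO and 38901 to 97085 CPM in Control libraries. They did not pass in any of 5 genes by edgeR (0 of 5 at an unadjusted p under 0.05, 0 by DESeq2). Alb averaged 52218 CPM in Control libraries, where the 5 markers summed to a mean of 75357 CPM. Cholangiocyte markers summed to 80.1 to 157 CPM in Cyr61 KO and 233 to 1362 CPM in Control libraries. Of the 5, 0 were called by edgeR, 4 had an unadjusted p under 0.05 and 3 were called by DESeq2. Spp1 averaged 509 CPM in Control libraries, where the 5 markers summed to a mean of 621 CPM. The groups overlapped in Sox9, at -0.84. Endothelial markers summed to 150 to 216 CPM in Cyr61 KO and 97.7 to 153 CPM in Control libraries, which overlapped. Kdr and Clec4g were called higher, while the groups overlapped in Stab2, Cdh5 and Pecam1, at 0.48, 0.33 and -0.17. The dendritic cell, macrophage and endothelial calls were 0 without Cyr61 KO replicate 1 or 2, without Control replicate 1 and with library totals only. Without Control replicate 2, edgeR called 0 dendritic cell and 0 macrophage markers and 1 endothelial marker, and leaving out Control replicate 3 gave 5, 4 and 1 calls. Leaving out Cyr61 KO replicate 3 gave 6 macrophage calls. Without Control replicate 2 the medians were -1.33 for dendritic cell, -1.23 for macrophage, -0.33 for B cell, -1.36 for T and NK cell and -1.24 for cholangiocyte markers. The part of any of these cell types in the class II result was not tested.

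**Figure D5:**
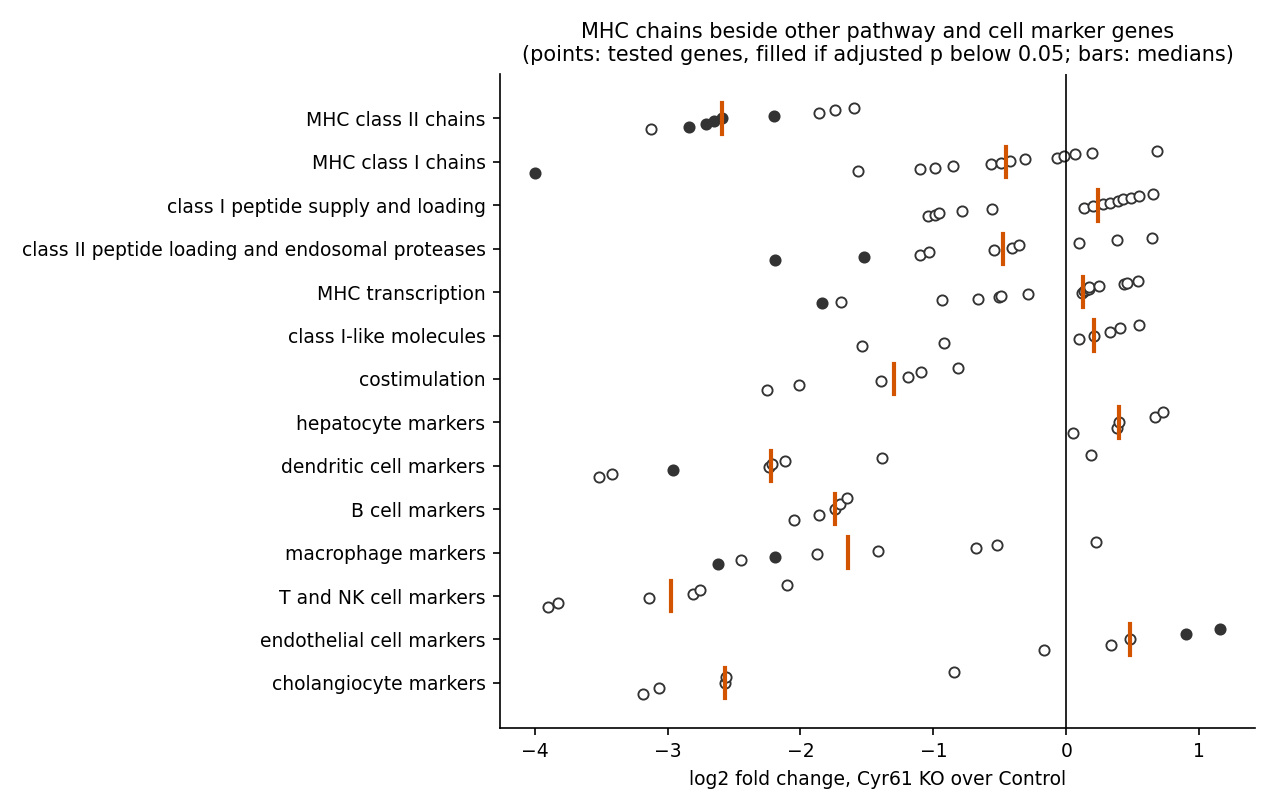
Log2 fold change of Cyr61 KO over Control for the tested MHC chains, other pathway genes and cell type markers; each point is a gene, filled where the edgeR adjusted p is below 0.05, and bars are list medians. The medians are -2.59 for class II chains, -0.46 for class I chains, -2.57 for cholangiocyte, -2.22 for dendritic cell, -2.97 for T and NK cell, 0.40 for hepatocyte and 0.48 for endothelial cell markers.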

How the data were processed

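Bulk RNA sequencing counts of 6 mouse liver libraries were used. The authors deposited raw read counts per gene symbol, unstranded and by strand, in 1 table per library. The tools listed per the submitters' processing notes are Trimmomatic 0.38 and STAR 2.6.1a, with builds mm10 and hg38. The annotation is not given in the sources used here. Counts of the strand that the directional kit gives were used; the opposite strand held 0.928% to 1.35% of stranded counts. Reads outside genes (4.27% to 25.7%), unmapped, multiply mapped (3.74% to 19.4%) or ambiguous reads stayed out. A table of the whole series was not used.

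Genes were tested with edgeR 4.0.16 (R 4.3.3) by its quasi-likelihood test, two-sided, with filterByExpr (minimum count 10, total 15), TMM and a group term, and p-values adjusted by Benjamini-Hochberg over 13563 genes. Each SE was obtained by dividing the size of the log2 fold change by the root of its F statistic. Alternatives were DESeq2 1.42.0, limma 3.58.1 voom with quality weights, other scalings and filters, a block for the replicate number, unstranded counts, and leaving out each library. No pair of replicate libraries agreed within sampling noise (chi-square per degree of freedom 54.9 or more). Limits for 0 counts use 3 counts and cover counting error only.

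Members, gene lists and naming rule were chosen with earlier results of these data known. The rule named every tested class II chain, Cd74, Ciita, H2-K1, H2-D1, H2-Q10, the class I machinery, any other called member, and up to 4 genes by smallest p in each pathway list. Other genes named were chosen after their values were seen. Positions, biotypes and transcript lengths (the transcript with the longest coding sequence) were read from the GENCODE M21 annotation (GRCm38, equal to mm10), where 46 of the 50 genes were found. Promoter sequences come from RefSeq on GRCm38.p6, with a window for 34 of the 50 genes.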

Additional observations from a re-analysis of the deposited data

How the results depend on the processing

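The number of class II chains called lower was 5 in the main test and 0 with library totals only, where 0 genes of all 50, 0 class I chains and 50 of all genes were called. DESeq2 and limma voom called 12 and 17 of the 50 genes, 4 and 6 class I chains, and 2273 and 4483 of all genes. Without a low-count filter 944 of all genes were called. Leaving out each library gave 0 to 6 class II chains, 0 to 1 class I chains, 0 to 9 of the 50 genes and 7 to 878 of all genes, a difference between the class medians of -2.51 to -1.63, and a Cyr61 log2 fold change of -3.19 to -2.73, which did not pass without Cyr61 KO replicate 1 (edgeR adjusted p = 0.0615).

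Some genes near 0 changed sign. With library totals only, H2-K1 was at -0.21, H2-Ke6 at -0.17 and H2-T24 at -0.13. With limma voom, H2-K1 was at -0.089, H2-Ke6 at -0.086, H2-Q5 at 0.14 and Nlrc5 at 0.68. Without a low-count filter H2-Q2 was at 0.026 and Nlrc5 at 0.045. With DESeq2 they were at 0.0043 and 0.0029, and with its size factors in edgeR at 0.0026 and 0.0033. When 1 library was left out, the ranges were -0.14 to 0.21 for H2-K1, -2.01 to 0.11 for H2-K2, -0.34 to 0.40 for H2-Ke6, -0.235 to 0.14 for H2-Q10, -0.26 to 0.27 for H2-Q2, -0.67 to 0.32 for H2-Q5 and -0.23 to 0.64 for Nlrc5. The cause was not tested.

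With the replicate number as a block, edgeR called 633 of all genes and the same number of class II chains, 5, and Nlrc5 was at 0.14. Deviations from the group means had correlations of -0.08, -0.23 and -0.45 between libraries with the same number. Deviations from a mean of 3 libraries cannot decide whether the numbers pair the libraries, and the labels state no pairing. With 3 libraries a group and 5 to 11 counts in some class II chains, small differences were not detectable.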
